A study of Rattus norvegicus with 17 samples.

Results

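The regions described here carried H3K4me3 at every stage of the rat oligodendrocyte lineage examined and met no H3K27Ac peak at any of them. They are called never acetylated regions below. They were found by joining overlapping or touching H3K4me3 peaks of all stages into 17241 regions, and by keeping those that were under 3000 bp wide, met an H3K4me3 peak of each stage and met no H3K27Ac peak of any stage. The rule kept 289 regions, which was 1.68% of the 17241. The regions were thus chosen by their H3K4me3 and H3K27Ac calls and their width, so values of these are given as a description and support nothing.

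The study mapped 6 targets by chromatin immunoprecipitation with sequencing (ChIP-seq) in primary cells taken at postnatal day 2 from the cortex of wild-type Sprague-Dawley rat pups. Precursor cells of oligodendrocytes (OPC) had mitogen treatment, in a growth medium with PDGF-AA at 10 ng/ml and bFGF at 20 ng/ml. Immature (iOL) and mature oligodendrocytes (mOL), the stages that lead to the myelin-forming glia, had treatment with the thyroid hormone T3, in a differentiation medium with T3 at 15 nM and ciliary neurotrophic factor at 10 ng/ml. The targets were H3K4me3, H3K27Ac, H3K9me3, RNA polymerase II (RNAPII, in OPC and iOL), the chromatin remodelling ATPase Brg1 and the lineage transcription factor Olig2. Each target and stage had 1 library and 1 peak list without read numbers, so depth is unknown, no test between stages can be made and no p-value is given.

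H3K4me3 is the trimethylation of lysine 4 of histone H3, which SET1 and MLL methyltransferase complexes place around transcription start sites. At active promoters it usually stands beside H3K27Ac, the acetylation of lysine 27 by p300 and CBP. In mammalian cells H3K4me3 can also stand without acetylation, above all at promoters rich in CpG whose genes are silent or poised. H3K9me3 is the mark of heterochromatin. Intervals in parentheses are exact Clopper-Pearson 95% intervals unless another is named. They count regions within these lists, treat them as independent and cover counting error only.

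Never acetylated regions were a small remainder of the stable H3K4me3 landscape. Of the 17241 joined regions, 8795 met an H3K4me3 peak of each stage, and 8338 of these were under 3000 bp. Among the 8338 narrow all-stage regions, 289 were never acetylated (3.47%, 3.08 to 3.88), 1974 met H3K27Ac at 1 or 2 stages (23.7%, 22.8 to 24.6) and 6075 met it at all stages (72.9%, 71.9 to 73.8). Lack of H3K27Ac at every stage was found at 21.9% of all joined regions. At 3000 bp and over the width limit left out no such region: all 457 of those wide all-stage regions met an H3K27Ac peak of some stage (0 of 457 never acetylated, upper limit 0.804%).

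The mOL H3K27Ac list, the longest with 35268 peaks against 19130 in OPC and 21589 in iOL, did most to set the number of members. Without the mOL list, 859 narrow all-stage regions would have been free of H3K27Ac in both OPC and iOL, and 570 of these met it in mOL alone. Regions acetylated in OPC alone numbered 75, and in iOL alone 53. When the same number of the widest H3K27Ac peaks was taken from each stage, 798 regions were never acetylated in place of 289. Absence of a peak is therefore absence of a call in these lists, and a level under the threshold of the peak caller cannot be seen.

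Near the limits of the rule, the widest members were chr3:88108100-88111009 (2910 bp), chrX:109833966-109836681 (2716 bp) and chr8:109474698-109477335 (2638 bp), in coordinates of build rn4. The narrowest all-stage region over the limit was 3000 bp wide and had 1664 bp under H3K27Ac. The members nearest to acetylation lay 66 bp from an H3K27Ac peak, at chr4:8758850-8759484 and chr11:53064208-53065373. The non-member with the least acetylation, chr10:86783177-86784808, had 3 bp under H3K27Ac. Of the 8338 regions, 7 had from 1 to 200 bp under H3K27Ac. Of the 289 members, 23 had H3K27Ac within 200 bp, 62 within 500 bp and 91 within 1000 bp.

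Never acetylated regions were narrower than acetylated narrow all-stage regions, but not than all joined regions. The width of members ranged from 358 to 2910 bp with a median of 997 bp (quartiles 827 and 1291), against a median of 1208 bp (927 and 1546) for regions acetylated at 1 or 2 stages and 1545 bp (1139 and 1968) for those acetylated at all stages. The median of all 17241 joined regions was 999 bp (633 and 1562). It was 544 bp (436 and 706) for regions with H3K4me3 in mOL alone and no mOL H3K27Ac. A width under 1000 bp was found in 145 of 289 members (50.2%, 44.3 to 56.1), in 30.5% (28.5 to 32.6) of regions acetylated at 1 or 2 stages and in 16.6% (15.7 to 17.6) of those acetylated at all stages. From 2000 bp up there were 6 members (2.08%, 0.766 to 4.46), against 23.5% (22.4 to 24.6) of regions acetylated at all stages. A wider region has more bases in which an H3K27Ac peak can fall, so width and the acetylation rule are not independent.

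**Figure D1:**
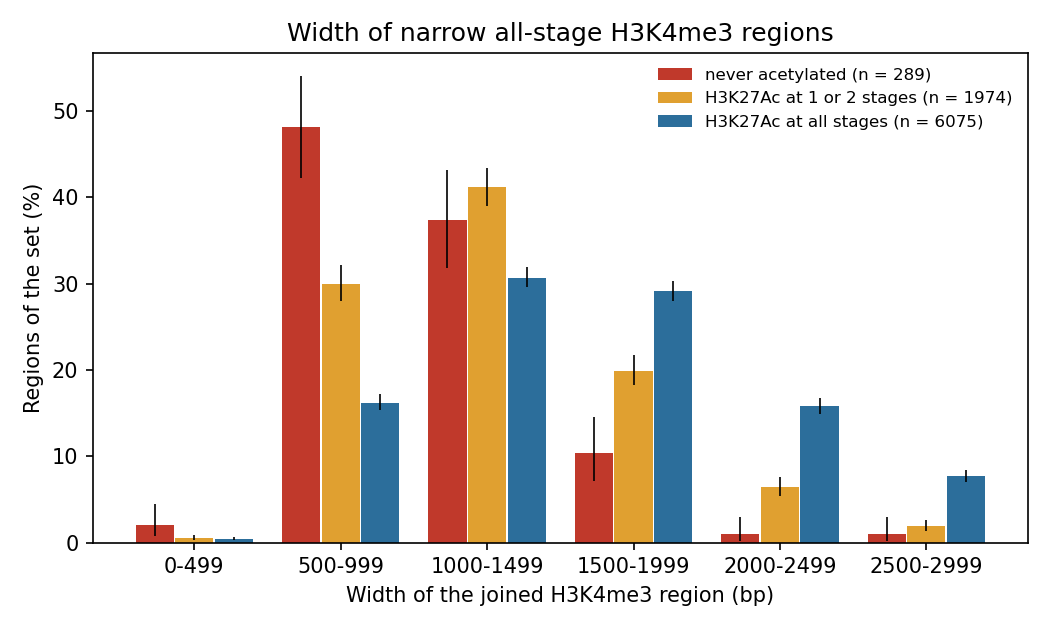
Width of the joined H3K4me3 region in bp (horizontal axis, bands of 500 bp) against the share of each set in that band in percent (vertical axis). Bars are never acetylated regions, regions with H3K27Ac at 1 or 2 stages and regions with it at all stages, and lines are exact 95% intervals over regions; 48.1% of never acetylated regions lie between 500 and 999 bp, where 16.2% of those acetylated at all stages lie.

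The H3K4me3 peaks inside the members were mostly single and were widest in mOL. At 270 of 289 members (93.4%, 89.9 to 96.0) each stage contributed exactly 1 peak, against 80.7% (79.6 to 81.6) of regions acetylated at all stages. Regions acetylated at 1 or 2 stages were close to members, at 91.5% (90.2 to 92.7). Summed over the region, the H3K4me3 peaks of the members covered a median of 685 bp in OPC (quartiles 533 and 850), 635 bp in iOL (550 and 786) and 937 bp in mOL (755 and 1241). The mOL peaks were the widest at 229 members (79.2%, 74.1 to 83.8), the OPC peaks at 37 and the iOL peaks at 23. The median ratio of mOL to OPC width was 1.34 at members, 1.36 at regions acetylated at 1 or 2 stages and 1.29 at those acetylated at all stages. The larger mOL width was thus shared by acetylated regions, and what the mOL library's own sensitivity contributed to it was not tested.

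The stages overlapped in the core of each member. A median of 544 bp (quartiles 460 and 664) lay under peaks of every stage, which was 55.5% of the region (44.8 and 69.4). Among regions acetylated at all stages it was 906 bp, or 65.2% of the region. Exceptions were 2 members in which no base lay under peaks of all stages, picked out after their values were seen. At chr1:78808127-78809388 the OPC, iOL and mOL peaks covered 337, 526 and 1094 bp of 1262 bp, and at chr14:105000819-105002294 they covered 533, 603 and 1389 bp of 1476 bp. The largest spread among the widest members was at chr3:88108100-88111009, where H3K4me3 covered 884 bp in OPC, 1031 bp in iOL and 2910 bp in mOL. At chrX:109833966-109836681 it covered 2189, 911 and 2592 bp at these stages, so this region was narrow in iOL alone. The narrowest member, chr1:12982997-12983354, was nearly the same in all stages, at 346, 335 and 317 bp.

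Across members the width at a stage went with the width at another less closely than at acetylated regions. Spearman's rho between OPC and iOL width was 0.468 over 289 members and 0.792 over 6075 regions acetylated at all stages, and between iOL and mOL it was 0.462 and 0.768. These are descriptions: the widths of a region share its bounds and the limit of 3000 bp, and members span a smaller range of widths.

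Members were scattered. They lay a median of 2319728 bp from the next member, and 215 of 289 (74.4%) had no other member within 1000000 bp. Another member within 10 kb was found for 6 of 289 (2.08%, 0.766 to 4.46), which made 3 pairs. The share was 10.8% (9.50 to 12.3) among the 1974 regions acetylated at 1 or 2 stages and 33.3% (32.1 to 34.5) among the 6075 acetylated at all stages, sets that are far larger. The pairs were chr1:140421936-140424465, with a gap of 490 bp between its members, chr7:36682623-36684644, with a gap of 395 bp, and chr7:114865186-114866669, with a gap of 57 bp. With so few members, distances alone say little, so their order among the narrow all-stage regions was also counted. The next such region along the chromosome was a member in 12 of 287 cases after a member (4.18%, 2.18 to 7.19) and in 287 of 8316 cases after any narrow all-stage region (3.45%, 3.07 to 3.87). The interval of the first share contains the second.

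Members often stood beside another H3K4me3 region, in a share whose interval contains that of all joined regions. A joined H3K4me3 region of any kind lay within 1000 bp of 149 of 289 members (51.6%, 45.6 to 57.5), where 55.8% of all 17241 regions had such a neighbour. The share was 52.3% (51.0 to 53.5) for regions acetylated at all stages. The state of the neighbour differed more. It was acetylated at some stage for 74 of the 149 members (49.7%, 41.4 to 58.0), against 87.8% (86.6 to 88.9) of the 3176 such neighbours of regions acetylated at all stages. For regions acetylated at some but not all stages this share was 76.9% (74.3 to 79.4). The rule bars an H3K27Ac stretch that spans a region and its neighbour for members, but not for acetylated regions. Part of the gap in neighbour acetylation can thus follow from the rule, and how much was not tested. H3K4me3 of the neighbour was called in mOL alone for 84 of 149 members (56.4%, 48.0 to 64.5). For regions acetylated at all stages it was 34.0% (32.4 to 35.7).

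The distance to the nearest H3K27Ac peak split the members. H3K27Ac of any stage was found within 1000 bp of 91 members (31.5%, 26.2 to 37.2), farther but within 10000 bp of 37 (12.8%, 9.18 to 17.2), and over 100 kb away from 40 (13.8%, 10.1 to 18.4). The median distance was 14733 bp (quartiles 597 and 57281). By stage, the median was 45079 bp in OPC, 48334 bp in iOL and 17657 bp in mOL, and H3K27Ac lay within 1000 bp of 49, 48 and 77 members at these stages. H3K27Ac was nearer in mOL than in OPC at 220 of 289 members (76.1%, 70.8 to 80.9) and farther at 69, in the order that the lengths of the lists would also give.

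**Figure D2:**
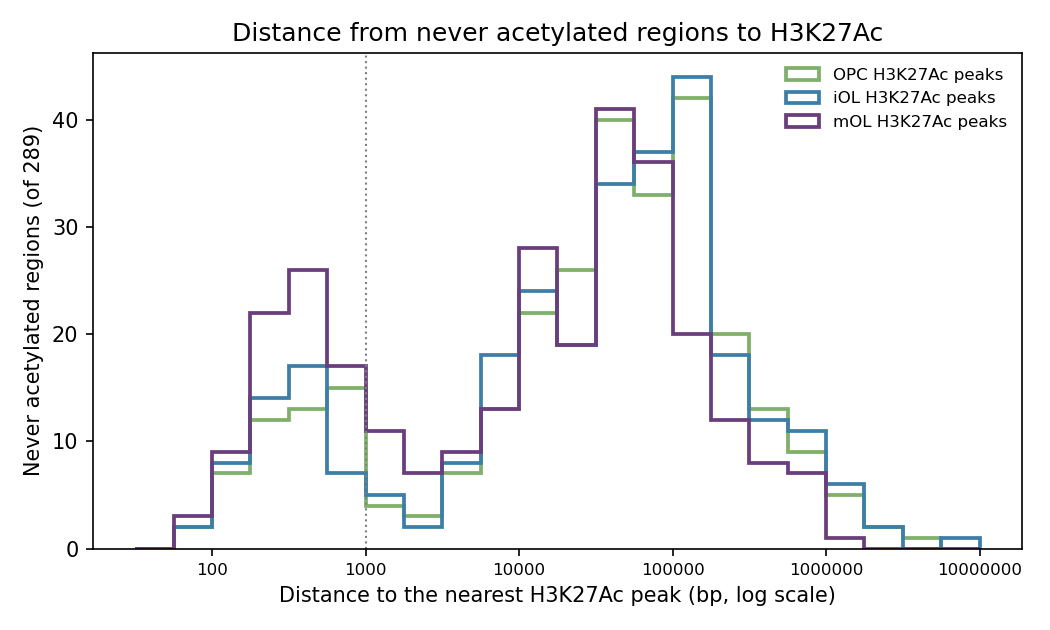
Distance from each of the 289 never acetylated regions to the nearest H3K27Ac peak of OPC, iOL and mOL in bp on a log scale (horizontal axis) against the number of regions per quarter-decade bin (vertical axis). Each line is a stage and the dotted line marks 1000 bp; each stage has a smaller group below the line, of 49, 48 and 77 regions, and a larger group beyond 10000 bp.

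H3K27Ac beyond the region itself also lay farther from members than from acetylated regions. The nearest H3K27Ac stretch of any stage that did not itself meet the region was a median of 14733 bp away for members, against 1874 bp for regions acetylated at 1 or 2 stages and 1685 bp for those acetylated at all stages. Such a stretch lay within 10 kb of 44.3% (38.5 to 50.2) of members and of 67.1% (65.9 to 68.3) of regions acetylated at all stages. The same H3K27Ac lists chose these sets, so this is a description. Around an acetylated region such a stretch can also lie close beside one that met the region. The members farthest from any H3K27Ac were chr16:90012426-90013830, at 1637023 bp, chr7:41497825-41499759, at 769571 bp, and chr1:160669598-160670964, at 737630 bp. At the first of these H3K4me3 covered 781 bp in OPC, 526 bp in iOL and 1405 bp in mOL, and the next H3K4me3 region was 3823371 bp away.

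Taking H3K27Ac and H3K4me3 neighbours together gave 3 kinds of surroundings. The 91 members with H3K27Ac within 1000 bp mostly stood beside another H3K4me3 region as well: 83 of them (91.2%, 83.4 to 96.1) had an H3K4me3 neighbour within 1000 bp, and at 73 of these 83 the same H3K27Ac stretch met that neighbour. Of the 91, 5 had H3K27Ac within 1000 bp on both sides. A second set of 66 members (22.8%, 18.1 to 28.1) had an H3K4me3 neighbour within 1000 bp but H3K27Ac farther away, at a median of 44189 bp, and that neighbour was called in mOL alone for 52 of the 66 (78.8%, 67.0 to 87.9). It was narrow, with a median of 495 bp, and was acetylated at some stage in 1 case of 66. The low count follows largely from how this set was defined, with no H3K27Ac within 1000 bp of the member. The last set of 132 members (45.7%, 39.8 to 51.6) stood alone, with the next H3K4me3 region at a median of 55338 bp and H3K27Ac at a median of 32648 bp. For 55 of the 132 the nearest H3K27Ac stretch met the next H3K4me3 region. Median widths of the sets were 951, 946 and 1069 bp.

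**Figure D3:**
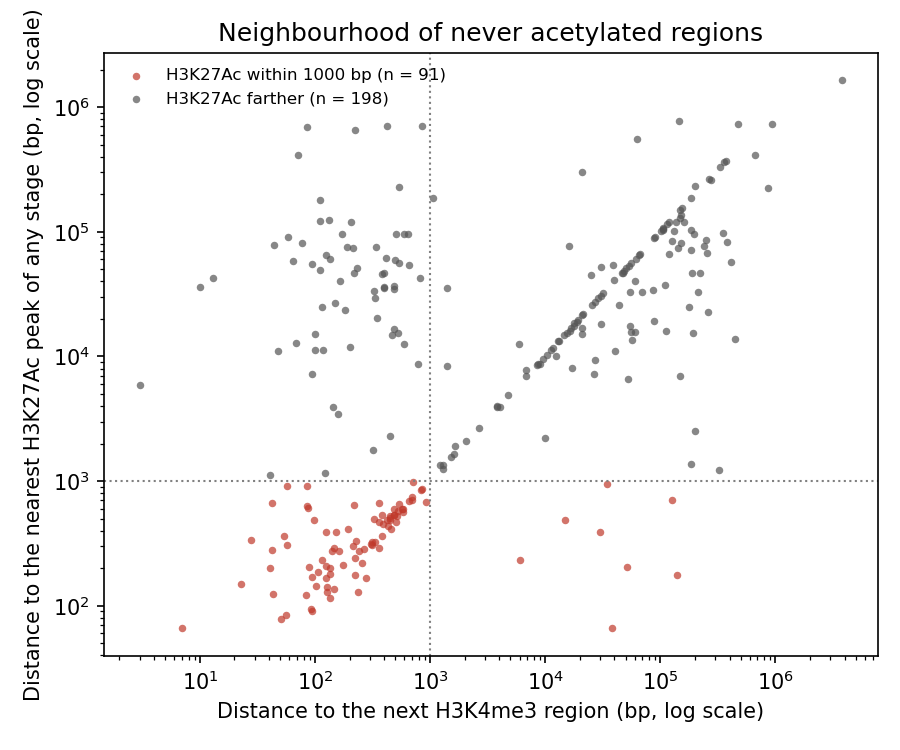
Distance to the next joined H3K4me3 region (horizontal axis) against distance to the nearest H3K27Ac peak of any stage (vertical axis), both in bp on log scales, for the 289 never acetylated regions. Each point is a region, dotted lines mark 1000 bp and colour marks the 91 regions with H3K27Ac within 1000 bp. Points on the diagonal are regions with the nearest H3K27Ac and the next H3K4me3 region at about equal distances, on the same side or not.

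The other targets were then counted at the members. RNAPII, Brg1, Olig2 and H3K9me3 were not used by the rule. None of them was called at any stage at 267 of 289 members (92.4%, 88.7 to 95.2), against 80.2% of all 17241 regions and 72.7% (71.5 to 73.8) of regions acetylated at all stages. The difference between members and regions acetylated at all stages was 19.7 percentage points (Newcombe 95% interval 15.9 to 22.5). It was 4.04 points (0.156 to 6.98) from regions acetylated at 1 or 2 stages, at 88.3% (86.9 to 89.7). The lack of these targets was also common in another set: among 3019 regions with H3K4me3 in mOL alone and no mOL H3K27Ac, which are narrower with a median of 544 bp, it was 94.0% (93.1 to 94.9), and members differed from them by -1.65 points (-5.38 to 1.04). Of the 22 members with some such peak, 21 met 1 of these targets and 1 met more.

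RNAPII, the enzyme that transcribes protein-coding genes, was called at 1 member, where 8.97% of all joined regions met it at some stage. No OPC RNAPII peak met a member (0 of 289, with an exact upper limit of 1.27%; 3 counts would give 1.04%), where 1.87% of all joined regions met one. In iOL 1 of 289 did (0.346%, 0.00876 to 1.91), where 8.36% of all joined regions did. Regions acetylated at all stages met RNAPII in 3.28% (2.84 to 3.75) of cases in OPC and 15.5% (14.6 to 16.4) in iOL. The differences of members from these were -3.28 percentage points in OPC (Newcombe interval -3.75 to -1.90) and -15.1 in iOL (-16.1 to -13.3). Regions acetylated at 1 or 2 stages stood between, with 3.44% (2.68 to 4.35) in iOL, and members differed from them by -3.10 points (-4.04 to -1.36). The regions with H3K4me3 in mOL alone and no mOL H3K27Ac were also low, at 0.199% (0.0730 to 0.432) in OPC and 1.06% (0.726 to 1.49) in iOL. Members differed from these by -0.199 points in OPC (-0.433 to 1.12) and -0.714 in iOL (-1.23 to 0.903), both intervals including 0. With the wider 50% of the RNAPII peaks the differences from regions acetylated at all stages were -1.71 points in OPC (-2.07 to -0.367) and -7.44 in iOL (-8.13 to -5.98). With H3K27Ac lists of equal number the iOL share of members was 1.88% (1.06 to 3.08).

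The iOL RNAPII difference was present within bands of width. Under 1000 bp, 1 of 145 members (0.690%) met RNAPII in iOL, against 131 of 1011 regions acetylated at all stages (13.0%), a difference of -12.3 points (-14.6 to -8.60). From 1000 bp to under 2000 bp it was 0 of 138 members against 487 of 3637 (13.4%), a difference of -13.4 points (-14.5 to -10.5). Above that only 6 members remained, too few to compare. The only member with RNAPII, chr10:13992844-13993786, shared 310 bp with an iOL RNAPII peak whose middle lay outside the region. Its nearest H3K27Ac was 13404 bp away in OPC, 13414 bp in iOL and 13359 bp in mOL. RNAPII of iOL lay within 10 kb of 7 members (2.42%, 0.979 to 4.93) and of 20.2% (19.2 to 21.2) of regions acetylated at all stages.

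**Figure D4:**
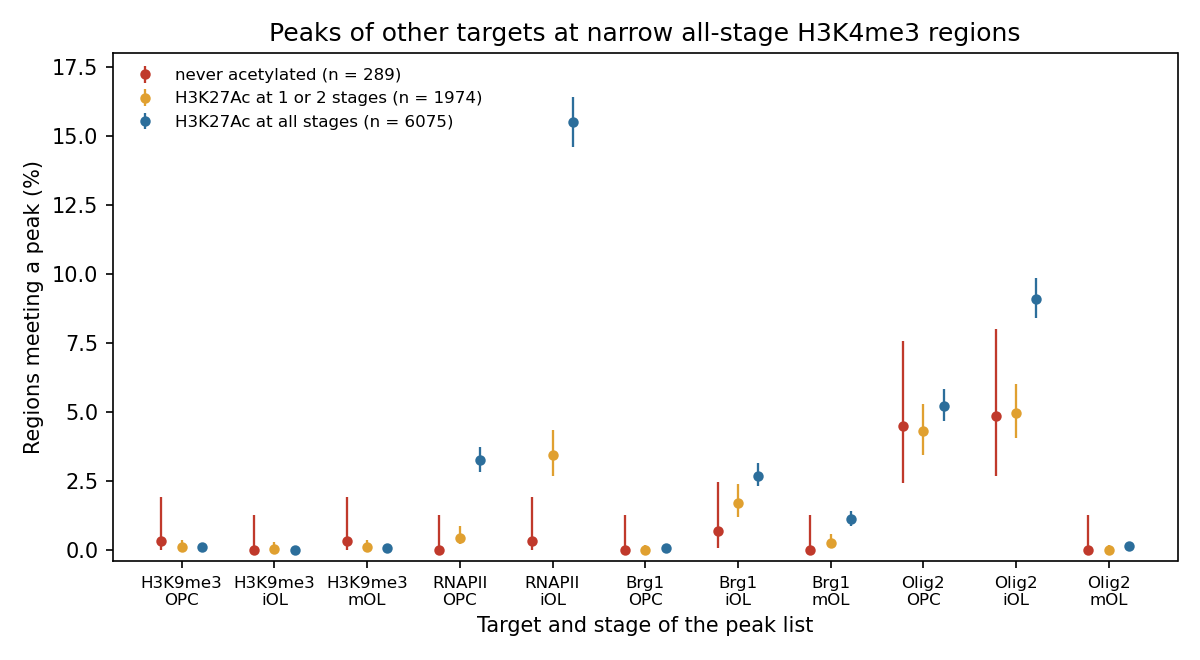
Share of regions in percent (vertical axis) that met a peak of each target and stage (horizontal axis), for never acetylated regions, regions with H3K27Ac at 1 or 2 stages and regions with it at all stages. Points are shares and lines exact 95% intervals over regions; iOL RNAPII separates the sets most, at 0.346%, 3.44% and 15.5%, whereas OPC Olig2 lies at 4.50%, 4.31% and 5.23%.

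Brg1, the ATPase of the BAF complex, was called at 2 members, where 3.49% of all joined regions met it at some stage. It met 0 of 289 members in OPC, 2 in iOL (0.692%, 0.0839 to 2.48) and 0 in mOL, where all joined regions met it in 0.215%, 2.81% and 1.52% of cases. Set against regions acetylated at all stages, at 0.0823%, 2.70% and 1.12%, the members differed by -0.0823 points in OPC (Newcombe interval -0.193 to 1.23), by -2.01 in iOL (-2.67 to -0.172) and by -1.12 in mOL (-1.42 to 0.213). Only the iOL interval leaves out 0, and with a width limit of 2000 bp it no longer did (-1.40, -2.09 to 0.469). Under 1000 bp the iOL shares were 0.690% of members and 0.692% of regions acetylated at all stages. Against regions acetylated at 1 or 2 stages, with 1.72% in iOL, members differed by -1.03 points (-1.87 to 0.830). Regions with H3K4me3 in mOL alone and no mOL H3K27Ac met iOL Brg1 in 0.662% of cases. Members differed from these by 0.0296 points (-0.587 to 1.84). The members with Brg1 differed in their surroundings. At chr7:20091424-20092175 a Brg1 peak of 615 bp lay wholly inside the region, with H3K27Ac at 483, 427 and 411 bp in OPC, iOL and mOL. At chr4:124630079-124631965 the Brg1 peak shared 91 bp at the edge, and H3K27Ac lay 263269, 150122 and 22815 bp away at these stages.

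Olig2, the basic helix-loop-helix factor that specifies the oligodendrocyte lineage, was the target found most often at members, as at all joined regions. Its lists held 21901 peaks in OPC and 25787 in iOL, against 332 and 1425 for RNAPII and 452 and 5465 for Brg1. Olig2 met 13 members in OPC (4.50%, 2.42 to 7.57), 14 in iOL (4.84%, 2.67 to 7.99) and 0 in mOL, where all joined regions met it in 6.51%, 8.77% and 0.394% of cases. Regions acetylated at all stages met it in 5.23%, 9.10% and 0.165% of cases. The differences were -0.736 points in OPC (Newcombe interval -2.68 to 2.35), -4.26 in iOL (-6.34 to -1.06) and -0.165 in mOL (-0.303 to 1.15). Within bands of width the iOL interval included 0, at 1.06 points under 1000 bp (-2.23 to 6.37) and -4.30 from 1000 bp to under 2000 bp (-6.56 to 0.358). In OPC Olig2 was more frequent at members among regions under 1000 bp, at 9 of 145 members (6.21%, 2.88 to 11.5) and 28 of 1011 regions acetylated at all stages (2.77%, 1.85 to 3.98), a difference of 3.44 points (0.290 to 8.67). This was not seen from 1000 bp to under 2000 bp, at 2.90% and 4.34% (difference -1.45, -3.35 to 2.91), and the bands were chosen after the data were seen. The iOL difference also came to include 0 among regions without another H3K4me3 region within 1000 bp (-2.76, -6.17 to 2.85). Against regions acetylated at 1 or 2 stages, with 4.96% in iOL, members differed by -0.120 points (-2.32 to 3.12).

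In all, 19 members met Olig2 (6.57%), where 10.6% of all joined regions did. They were 8 in both OPC and iOL, 5 in OPC alone and 6 in iOL alone. Of these 19, 17 were among the 198 members with H3K27Ac farther than 1000 bp (8.59%, 5.08 to 13.4) and 2 among the 91 with H3K27Ac nearer (2.20%, 0.267 to 7.71). Overlap of these intervals does not show that the shares agree, and no interval of their difference was computed. The widest with Olig2 at both stages was chr4:124630079-124631965, which also met Brg1 in iOL. The next were chr5:77053073-77054251 and chr14:84747520-84748443. At chr5:77053073-77054251 H3K4me3 covered 658 bp in OPC, 550 bp in iOL and 1179 bp in mOL, and the Olig2 peaks lay over 845 bp of the joined region of 1179 bp in OPC and 399 bp in iOL. At chr14:84747520-84748443 H3K4me3 covered 535, 493 and 924 bp, the Olig2 peaks lay over all 924 bp of the joined region in OPC and 817 bp in iOL, and H3K27Ac stayed between 13185 and 13248 bp away at all stages. Not every overlap was central: the middle of the Olig2 peak lay inside the member in 6 of 13 OPC overlaps and 10 of 14 iOL overlaps. The smallest overlap was 8 bp, in iOL at chr16:40105744-40106232.

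H3K9me3 was called at 1 member, where 0.232% of all joined regions met it at some stage. It met 1 member in OPC (0.346%, 0.00876 to 1.91), 0 in iOL and 1 in mOL (0.346%), where 0.128%, 0.0290% and 0.139% of all joined regions met it. Differences from regions acetylated at all stages were 0.247 points in OPC (Newcombe interval -0.0606 to 1.84), -0.0165 in iOL (-0.0932 to 1.30) and 0.264 in mOL (-0.0418 to 1.85). The same member met it in OPC and mOL, chr8:96315044-96317506. Its H3K4me3 covered 1040 bp in OPC, 650 bp in iOL and 2357 bp in mOL of the 2463 bp, with 55 bp under peaks of all stages. The H3K9me3 peaks lay wholly inside it, 1188 bp wide in OPC and 1033 bp in mOL, and H3K27Ac was at least 700229 bp away. H3K9me3 of mOL lay within 10 kb of 13 members (4.50%, 2.42 to 7.57) and of 3.56% (3.10 to 4.05) of regions acetylated at all stages.

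By chromosome, never acetylated regions made up between 1.72% (chromosome 14) and 6.93% (chromosome X) of narrow all-stage regions. On X it was 16 of 231 (6.93%, 4.01 to 11.0), against 272 of 8068 on the autosomes (3.37%, 2.99 to 3.79), a difference of 3.56 points (Newcombe interval 0.904 to 7.60). X was singled out after the values of all chromosomes were seen, and these calls are those of the rule. H3K27Ac itself was called less often at narrow all-stage regions of X, at 74.0%, 69.7% and 88.7% in OPC, iOL and mOL, against 81.6%, 82.1% and 94.6% on the autosomes. All 16 members on X lay over 1000 bp from H3K27Ac, at a median of 97251 bp and at least 11366 bp, against a median of 12284 bp on the autosomes. Another H3K4me3 region stood within 1000 bp of 10 of the 16. None of these 10 neighbours was acetylated, which follows from the distance of at least 11366 bp to H3K27Ac. Without regions that had an H3K4me3 neighbour within 1000 bp the X difference was 0.698 points (-1.66 to 5.42). With the wider 50% of each H3K4me3 list it was 1.45 (-0.0324 to 6.45). With H3K27Ac lists of equal number it was 8.42 (3.98 to 13.9). None of the 16 met Olig2 (0 of 16, upper limit 20.6%), where 19 of 272 autosomal members did.

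**Figure D5:**
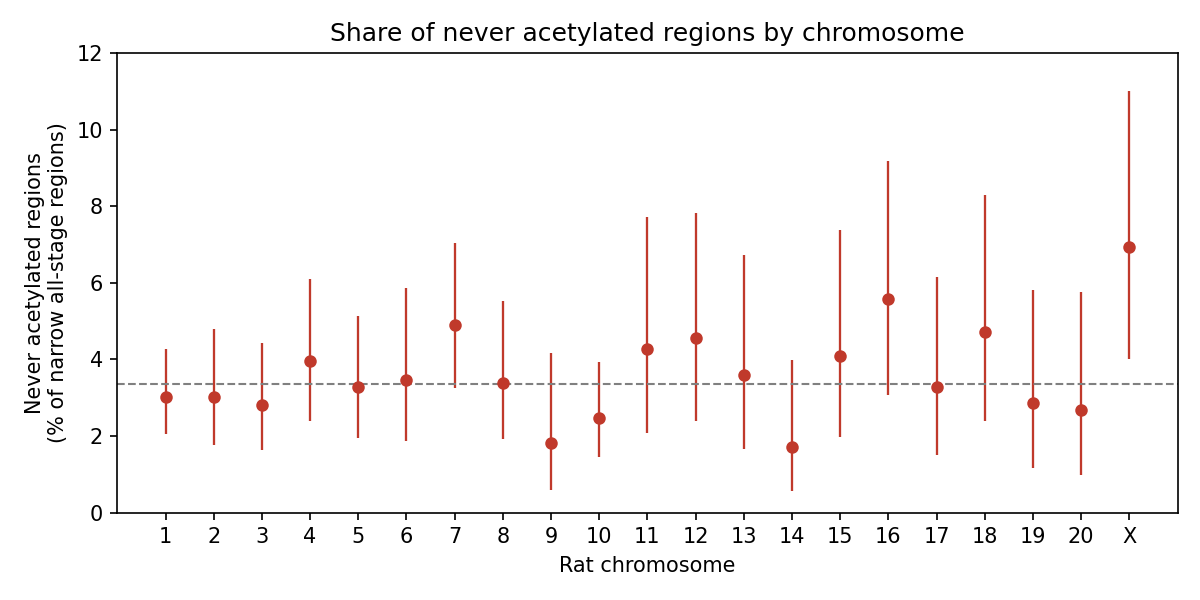
Never acetylated regions as a share of the narrow all-stage H3K4me3 regions of each rat chromosome, in percent (vertical axis), by chromosome (horizontal axis). Points are shares, lines exact 95% intervals over regions and the dashed line the autosomal share of 3.37%; X stands highest at 6.93%.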

How the data were processed

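Peaks of 6 targets were analysed from 17 libraries, 1 for each target and stage. The submitters' processing notes name MACS 1.4.0 and build rn4; for the aligner, threshold, control library and pooling the sources used here give nothing. The deposited lists hold chromosome, start and end per peak, with no score, so positions and widths were the values analysed and the depth of each library is unknown.

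Starts were written 1-based. Overlap meant at least 1 bp. H3K27Ac of any stage means the 3 lists joined. Distances are bases between edges. Calculations used Python 3.11.15, numpy 2.4.6 and scipy 1.17.1, figures matplotlib 3.10.9, and member counts were checked with bedtools 2.31.1. The calculations were tested on simulated lists. Members, comparisons and alternatives were chosen with earlier results of these data known. Regions named were the 3 widest, narrowest and farthest from H3K27Ac, the groups of members, and the widest with each other target, a selection of which is printed. Named outside these choices were the members nearest to H3K27Ac, the non-member with the least of it and the smallest Olig2 overlap. So were the members without a base under peaks of all stages, picked afterwards. Members with Olig2, Brg1, RNAPII and H3K9me3 were ranked by number of stages, then width. The reference tables belong to GRCr8, not to rn4, so no gene names or sequences are given, and cell identity was not checked against marker genes.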

Additional observations from a re-analysis of the deposited data

How the results depend on the processing

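Each of 20 results was recomputed under up to 10 other settings, 185 values in all. Of these, 146 stayed within the interval of the value reported, or within 1.5 times for the number of members, or, for a difference, kept its sign and whether its interval included 0. The iOL RNAPII difference from regions acetylated at all stages did so under every setting, ranging from -18.1 with the wider 50% of the H3K4me3 lists to -7.44 with the wider 50% of the other lists. Where the reported share was 0, settings that only remove members, peaks or overlaps could not change it. Such values are among the 146 and say nothing about stability. H3K27Ac lists of equal number and the exclusion of regions with an H3K4me3 neighbour within 1000 bp were added after seeing the data, as were all settings for the differences.

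The number of members was 798 with H3K27Ac lists of equal number, 140 without regions that had another H3K4me3 region within 1000 bp and 22 with the wider 50% of the H3K4me3 lists. With H3K4me3 peaks joined across 500 bp it was 218. Median width was then 1230 bp, and 1452 bp with the wider 50% of the H3K4me3 lists. The median distance to H3K27Ac was 31360 bp with peaks joined across 500 bp, 36486 bp with no H3K27Ac within 1000 bp, 28380 bp without an H3K4me3 neighbour and 20558 bp with the wider 50% of the H3K4me3 lists. Another member within 10 kb was found for 7.52% with H3K27Ac lists of equal number, and for 0% with joined peaks, without an H3K4me3 neighbour and with the wider 50% of the H3K4me3 lists.

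With the wider 50% of the H3K4me3 lists the iOL Brg1 share was 4.55% of 22 members, and its difference reversed to 1.03 points (-2.78 to 18.3). H3K9me3 in OPC and mOL and RNAPII in iOL were 0% there, the RNAPII difference in OPC was -4.08 (-4.81 to 10.8), the Olig2 difference in iOL -6.08 (-9.97 to 11.2) and the X difference 1.45. H3K9me3 in OPC and mOL was also 0% with a width under 2000 bp and without an H3K4me3 neighbour. With the wider 50% of the other lists Brg1 and RNAPII in iOL were 0%, and Olig2 1.38% in OPC and 1.38% in iOL. Asking for overlap of 50% of the shorter gave 2.08% for Olig2 in OPC and 0% for RNAPII in iOL. The iOL Brg1 difference was -2.19 (-2.80 to 0.136) with no H3K27Ac within 1000 bp, -1.87 (-2.74 to 1.39) without an H3K4me3 neighbour and -1.40 with a width under 2000 bp. The iOL Olig2 difference was -2.42 (-5.21 to 1.82) with joined peaks, -2.54 (-5.33 to 1.86) with no H3K27Ac within 1000 bp, -2.76 without an H3K4me3 neighbour and -2.37 (-4.50 to 0.895) with a width under 2000 bp. The X difference without an H3K4me3 neighbour was 0.698. The settings on H3K4me3 lists and neighbours leave fewer regions by construction. H3K27Ac lists of equal number can only add members. Leaving out members with H3K27Ac within 1000 bp can only raise their median distance to it. The wider 50% of the other lists and the overlap of 50% can only lower the shares of members. Otherwise the cause was not tested.

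No paired analysis was possible because each target and stage had 1 library. Depth is unknown, so a mark under the threshold of the peak caller cannot be told apart from its absence, and the shares of 0 to 2 members in 289 rest on single regions.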
